A study of Mus musculus with 3 samples.

Results

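The genes described here encode proteins of the red cell membrane and surface, with 2 other genes active in red cell precursors. The 9 genes are Slc4a1, Rhag, Epb42, Ank1, Sptb, Ermap, Epor, Hemgn and Trim10. They were taken by name, with every probe set whose only gene symbol in the platform annotation was one of them. That gave 16 probe sets for the 9 genes, of 45101 probe sets on the array and 18193 genes measured by a probe set with 1 symbol. RNA came from mouse embryos taken whole at 8.5 days post coitum, and each of the 3 Affymetrix arrays carried 1 pool of litter mates of mixed sex.

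The Dnmt3l mutant group was 2 arrays, labelled as biological replicates, from pools of 8 embryos (pool 1) and 6 embryos (pool 2). These embryos were Dnmt3l-/+ on a C57Bl/6J background, with a Dnmt3l-/- mother and a wildtype father. The normal group was 1 array from a pool of 6 C57Bl/6J embryos. Dnmt3l helps the enzymes that place new DNA methylation, and oocytes depend on it to lay down maternal imprints, so the mutants lack maternal marks while carrying a wildtype paternal copy of the gene. With 1 normal array the spread among normal pools is unknown, and every test takes it to equal the spread between the mutant pools.

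Red cells of the embryo at this stage arise in the blood islands of the yolk sac and mature in the circulation. Their membrane is carried by a skeleton of spectrin tetramers, which ankyrin ties to the anion exchanger band 3, with protein 4.2 and the Rh complex in the same assembly. Erythropoietin acts through its receptor on red cell precursors. The transcription factors GATA1 and KLF1 are known to switch on many genes of mature red cells.

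All 9 genes read higher in both mutant pools than in the normal pool, and 8 of the 9 were at least 2-fold higher in both. The 9 genes, and the gene lists described further on, were picked with earlier results of these data known. Setting their counts beside those of all genes is therefore a description and cannot serve as a test. Over all measured genes, 36% read higher in both mutant arrays and 3.11% were at least 2-fold higher in both. The median log2 ratio of the 9 genes was 1.58 (1.71 in pool 1 and 1.67 in pool 2), against -0.01 over all measured genes. Ratios are of signal plus a pseudocount of 31.92, which is the 20th percentile of signal on the middle one of the arrays, and understate the change of dim genes. A single gene, Slc4a1, passed limma's moderated test after Benjamini-Hochberg adjustment over the 27022 probe sets kept by a filter on dim signal. Over the 12913 genes kept, 0.728% passed as higher.

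Markers of other tissues read differently on the same arrays. The summed signal of 15 yolk sac endoderm markers was 120951 and 127434 in mutant pools 1 and 2, against 23093 in the normal pool. All 15 read higher in both mutant pools, against 36% of all measured genes. Limma called 13 of the 15 higher after adjustment, against 0.728% of all kept genes. The summed signal of 16 neural, cardiac and somite markers was 13287 and 19296 in the mutant pools, against 29681 in the normal pool. Of the 16, 15 read lower in both mutant pools, against 37.4% of all measured genes. Limma called 0 of the 16 after adjustment, while 10 had an unadjusted limma p under 0.05 on the lower side, against 4.24% of all kept genes. The part of tissue makeup in the results below was not tested. In bulk RNA, more cells of a type and more RNA per cell cannot be told apart. The Actb control's 3' to 5' signal ratio was 1.24 and 1.43 in the mutant pools and 1.63 in the normal pool, and that of Gapdh was 0.859 and 1.10 in the mutant pools and 0.930 in the normal pool. Dnmt3l read 183 and 14.3 in the mutant pools and 12.2 in the normal pool. The embryos carry an intact paternal copy and the place of the probes in the gene was not used here, so this reading checks nothing about the labels.

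Promoter windows were available in the RefSeq table (build GRCm38.p6) for 7 of the 9 genes, all but Slc4a1 and Ank1. Each window runs from 250 bases before to 50 bases after the RefSeq start. The 4 windows below belong to the genes with a GATA motif between the start and 70 bases before it, and they are shown because GATA1 is known to act on red cell promoters, that of Epor among them. Capitals mark each match to the GATA motif on either strand, and each sequence is given 5′ to 3′ on the gene's strand. The Hemgn window is chr4:46404134-46404433 (minus strand), and the Ermap window is chr4:119189946-119190245 (minus strand). The Epor window is chr9:21963527-21963826 (minus strand), and the Rhag window is chr17:40810899-40811198 (plus strand).
Hemgn: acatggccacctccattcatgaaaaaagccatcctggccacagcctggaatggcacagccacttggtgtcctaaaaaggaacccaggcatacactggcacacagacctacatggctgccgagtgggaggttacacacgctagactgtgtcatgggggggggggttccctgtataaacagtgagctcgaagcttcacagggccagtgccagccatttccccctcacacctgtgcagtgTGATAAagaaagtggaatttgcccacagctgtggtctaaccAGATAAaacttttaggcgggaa
Ermap: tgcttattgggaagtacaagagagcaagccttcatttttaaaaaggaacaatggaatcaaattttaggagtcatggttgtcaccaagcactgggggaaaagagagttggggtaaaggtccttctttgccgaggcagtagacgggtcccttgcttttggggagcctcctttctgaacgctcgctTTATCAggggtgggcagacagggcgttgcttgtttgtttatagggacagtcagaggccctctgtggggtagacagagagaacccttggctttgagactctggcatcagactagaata
Epor: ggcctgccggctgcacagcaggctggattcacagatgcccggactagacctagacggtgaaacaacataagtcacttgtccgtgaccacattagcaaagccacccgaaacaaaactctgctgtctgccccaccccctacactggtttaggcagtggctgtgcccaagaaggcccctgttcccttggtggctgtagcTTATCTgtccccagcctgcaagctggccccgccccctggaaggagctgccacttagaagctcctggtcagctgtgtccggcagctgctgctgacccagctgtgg
Rhag: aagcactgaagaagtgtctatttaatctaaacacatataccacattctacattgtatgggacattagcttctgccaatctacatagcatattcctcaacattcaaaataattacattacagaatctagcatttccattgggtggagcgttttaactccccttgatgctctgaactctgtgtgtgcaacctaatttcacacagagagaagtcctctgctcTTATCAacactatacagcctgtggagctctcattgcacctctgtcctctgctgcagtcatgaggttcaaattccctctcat
The GATA motif was searched as AGATAA or TGATAA or AGATAG or TGATAG on both strands, and all 7 windows held at least 1 match. Of the 32851 windows of this length in the table, 29.8% held one. The first base of the match lay at -13 and at 29 from the start for Hemgn, at -67 for Ermap, at -54 for Epor and at -31 for Rhag. It lay at -163 for Trim10, at -226 for Epb42 and at 13 for Sptb. A CACCC box (CACCC, both strands), the kind of letters KLF1 binds, was present in 5 of the 7 windows and in 57.5% of all windows. The letters CANNTG were present in 5 of the 7 and in 72.3% of all, and 5 windows held both a GATA motif and CANNTG, against 22.9% of all. No matches overlapped within a window, and each is a description of letters, not a binding site. The windows held a median of 4 CpG dinucleotides, against 7 over all windows, and the ratio of observed to expected CpG had a median of 0.19 against 0.38. Sptb stood apart with 21 CpG dinucleotides and a ratio of 0.66.

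**Figure D1:**
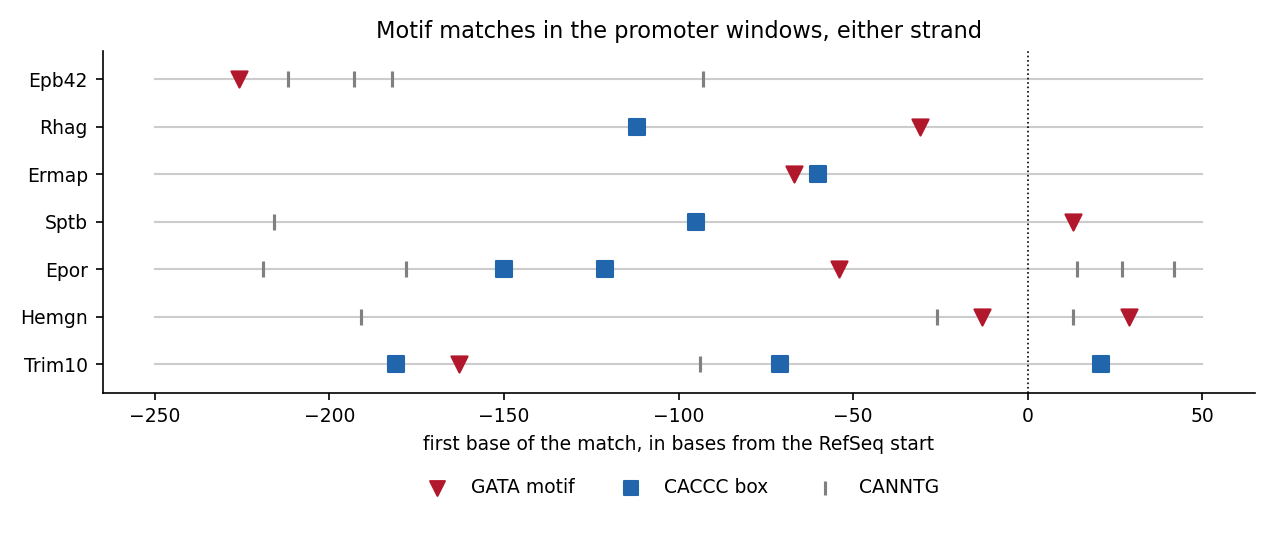
Motif matches on either strand in the promoter windows of 7 genes, by the position of the first matched base in bases from the RefSeq start (dotted line). Every window holds a GATA motif (triangles), with positions from -226 for Epb42 to 29 for Hemgn.

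Slc4a1 encodes band 3, the chloride and bicarbonate exchanger of the red cell and the main anchor of its skeleton. Its brightest probe set (1434502_x_at) read 1506 and 2208 in mutant pools 1 and 2, against 313 in the normal pool. The mutant mean was 1857 ± 497 (SD, n = 2), and both pools lay far above the single normal value. Slc4a1 rose, with a log2 ratio of 2.43 (SE 0.30, limma adjusted p = 0.0498), close to the threshold of 0.05. The call was lost under 6 of 10 other settings. The 10 settings included the nearly equal pseudocounts of 15.96 and 16, and the call held at both. Over these settings the limma adjusted p ranged from 0.0139 to 0.190. The log2 ratio stayed between 2.16 and 2.70, the single mutant pools included. The suffix of this probe set marks probes that may bind related transcripts. A second probe set (1416464_at) read 959 and 1422 in the mutant pools, against 257 in the normal pool, a log2 ratio of 2.05 (SE 0.31, limma adjusted p = 0.0794). The third (1431743_a_at) read 3.42 and 4.35 in the mutant pools and 5.50 in the normal pool, all below the 20th percentile of their arrays.

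Rhag encodes the Rh-associated glycoprotein, a channel for ammonia and gases that holds the Rh complex in the membrane. It read 319 and 458 in the mutant pools, against 111 in the normal pool. Its log2 ratio was 1.54 (SE 0.34, limma adjusted p = 0.164), which did not pass. Rhag and Slc4a1 were higher in mutant pool 2 than in pool 1, as Ank1 was, while the other 6 genes were higher in pool 1.

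Epb42 encodes protein 4.2, a relative of the transglutaminases without enzyme activity that binds band 3 and ankyrin. Its brighter probe set read 120 and 95.0 in the mutant pools, against 14.5 in the normal pool. The normal value lay below the 20th percentile of its array, so the size of the log2 ratio, 1.58, depends on the pseudocount. The filter on dim signal removed both probe sets and Epb42 therefore had no test in the fit. Without the filter its limma adjusted p was 0.361. The second probe set read 108 in pool 1, but 35.8 in pool 2 was close to 32.3 in the normal pool. With the pseudocount at 15.96 that second probe set became the brighter one on the log scale, and the gene's log2 ratio was 0.73.

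The skeleton genes Ank1 and Sptb had the smallest ratios of the 9. Ank1 encodes the ankyrin of red cells, which links spectrin to band 3. Its brightest probe set read 521 and 563 in the mutant pools, against 227 in the normal pool, a log2 ratio of 1.14 (SE 0.27, limma adjusted p = 0.184). A second Ank1 probe set read 323 and 199 against 95.7 in the normal pool, and the dimmest, removed by the filter, read 75.5 and 45.1 against 14.6. The remaining one (1443291_at) went the other way, with 112 and 74.4 in the mutant pools against 145 in the normal pool (log2 ratio -0.52, limma adjusted p = 0.609). The mean of the kept Ank1 probe sets gave a log2 ratio of 0.60.

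Sptb encodes the beta chain of red cell spectrin. Its brighter probe set read 556 and 383 in the mutant pools, against 209 in the normal pool. The log2 ratio was 1.04 (SE 0.33, limma adjusted p = 0.276), with 1.29 in pool 1 and 0.79 in pool 2, and Sptb was the gene that missed 2-fold in one of the pools. Its dimmer probe set read 195 and 181 in the mutant pools and 133 in the normal pool, a log2 ratio of 0.41 (SE 0.31). No mutant value of either Sptb probe set fell to the normal value.

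**Figure D2:**
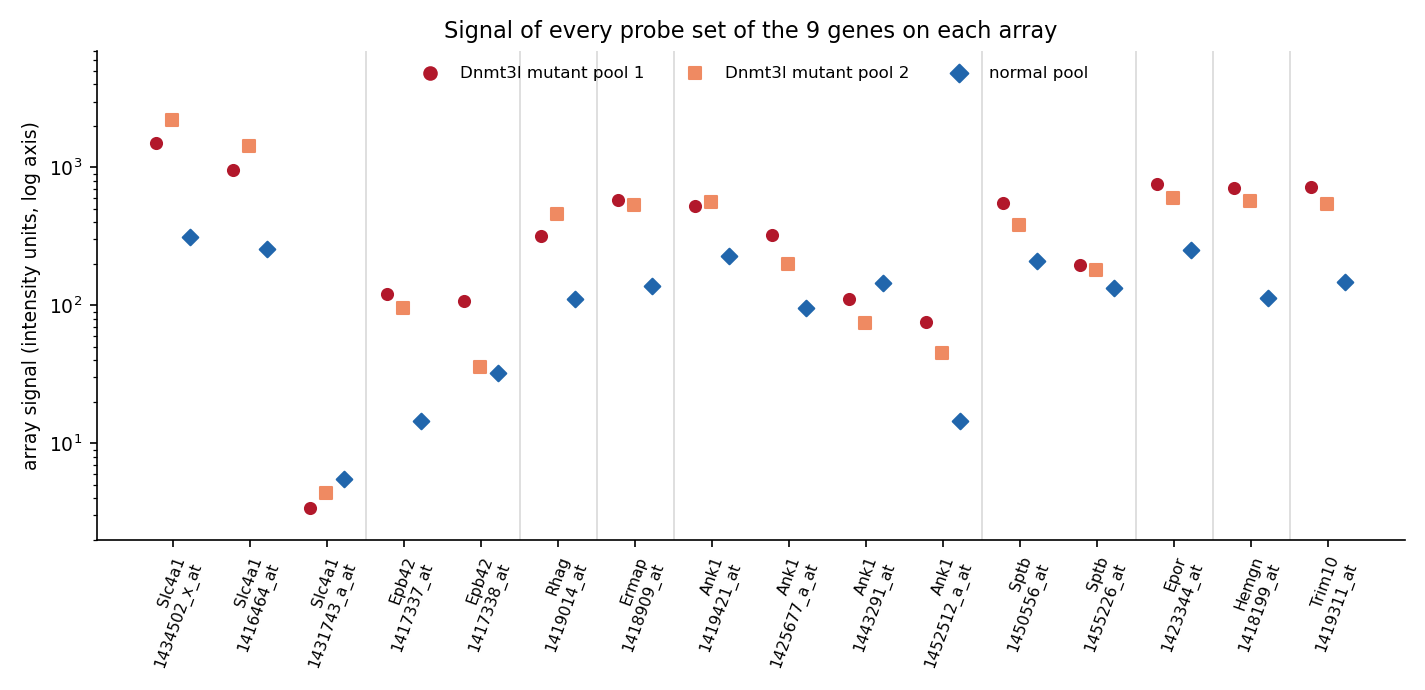
Array signal (log axis) of all 16 probe sets of the 9 genes on mutant pool 1 (circles), mutant pool 2 (squares) and the normal pool (diamonds), with 1 point per array. In 14 probe sets both mutant values lie above the normal value, and in 2, the dimmest of Slc4a1 and 1443291_at of Ank1, both lie below it.

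Ermap encodes an erythroid membrane protein of the butyrophilin family that carries the Scianna blood group in humans. It read 582 and 534 in the mutant pools, against 137 in the normal pool. The mutant mean was 558 ± 34.4 (SD, n = 2), and the log2 ratio was 1.80 (SE 0.27, limma adjusted p = 0.0782). The mutant pools differed by 0.12 on the log2 scale, among the smallest gaps of the 9 genes.

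Epor encodes the erythropoietin receptor, which signals through the kinase JAK2. It read 756 and 598 in the mutant pools, against 251 in the normal pool, a log2 ratio of 1.32 (SE 0.28, limma adjusted p = 0.158). Both mutant values were more than 2-fold above the normal one.

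Hemgn encodes hemogen, a nuclear protein of blood cell precursors, and is therefore not a membrane gene. It read 710 and 572 in the mutant pools, against 113 in the normal pool. Its log2 ratio of 2.21 (SE 0.29, limma adjusted p = 0.0580) was the second highest of the 9. Trim10 encodes a tripartite motif protein needed for terminal red cell differentiation in mouse cells. It read 716 and 542 in the mutant pools, against 149 in the normal pool, a log2 ratio of 1.86 (SE 0.30, limma adjusted p = 0.0913). Over the 9 genes the gap between the mutant pools ranged from 0.11 to 0.54 on the log2 scale. Its median was 0.32, against 0.21 over all kept genes.

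Without the filter, all 9 genes had an unadjusted limma p under 0.05, as did 6.87% of the 18193 genes measured on the higher side. By the smaller of its ratios in the mutant pools, Slc4a1 had 0.456% of measured genes above it and Hemgn 0.522%. Sptb, the lowest, had 4.58% above it. Genes that resembled the 9 most closely were found by the distance between their log2 ratios in the mutant pools and the median ratios of the 9, a measure over only 2 values per gene that share the normal array. The 5 nearest were Rab11fip5, Atp6v0a1, Ttr, Pxdc1 and Plac1, with distances from 0.044 to 0.097. Ttr, which encodes the thyroid hormone carrier transthyretin, is among the yolk sac endoderm markers counted above.

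Other genes of the red cell membrane, a list not confined to red cells that includes the widely active Slc2a1, gave a mixed picture. Of 30 listed, 27 were measured. Of these, 18 read higher in both mutant pools, 5 lower in both and 4 differed in sign, against 36% and 37.4% of all measured genes that read higher in both or lower in both. The median log2 ratio was 0.39. Of the 23 kept, limma called 0 after adjustment, while 5 had an unadjusted p under 0.05 on the higher side and 1 on the lower side, against 8.01% and 4.24% of all kept genes. At least 2-fold higher in both pools were 3 of the 27, Kcnn4, Kel and Slc14a1, against 3.11% of all measured genes. Kcnn4, the calcium-activated potassium channel of red cells, read 325 and 294 in the mutant pools, against 25.7 in the normal pool, a log2 ratio of 2.56 (SE 0.32, limma adjusted p = 0.0524). That normal value lay below the 20th percentile of its array, so the size of the ratio depends on the pseudocount. A second Kcnn4 probe set, removed by the filter, had log2 ratios of 1.85 in pool 1 and 0.84 in pool 2.

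Kel, the Kell blood group protease, read 223 and 288 in the mutant pools against 62.9 in the normal pool (log2 ratio 1.59, SE 0.34). Gypc, the glycophorin that anchors protein 4.1, read 515 and 458 against 219 in the normal pool (1.04, SE 0.27). Mpp1, a scaffold that binds glycophorin C and protein 4.1, read 1973 and 2317 against 1001 in the normal pool (1.07, SE 0.22). None of these 3 passed (limma adjusted p = 0.152, 0.215 and 0.144 in that order). Slc14a1, the urea transporter of the Kidd blood group, read 63.1 and 88.8 in the mutant pools and 9.75 in the normal pool, and Xk, the partner of Kell, read 70.5 and 54.6 in the mutant pools and 12.6 in the normal pool. Both were removed by the filter.

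Relatives of the 9 genes that act in other tissues were set beside them. Of 25 listed, 20 were measured, with a median log2 ratio of 0.28. Of these, 11 read higher in both mutant pools and 5 lower in both, against 36% and 37.4% of all measured genes. At least 2-fold higher in both pools were 3 of the 20, Tgm1, Tgm2 and Trim15, against 3.11% of all measured genes. Of the 16 kept, limma called 0 after adjustment. An unadjusted limma p under 0.05 was found for 2, both on the higher side, against 8.01% of all kept genes. The difference between a gene and its relative was not itself tested.

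Among the other anion exchangers and bicarbonate carriers, Slc4a2 had a log2 ratio of 0.41, Slc4a4 0.38 and Slc4a3 -0.49, against 2.43 for Slc4a1. The sign differed between probe sets, as the other kept ones had -0.36 and -0.22 for Slc4a4 and 0.21 for Slc4a3. The brightest Slc4a3 probe set was split between the pools (85.2 and 204 in the mutant pools and 201 in the normal pool). The brain and heart ankyrins Ank2 and Ank3 had log2 ratios of 0.05 and -0.58 by their brightest probe sets, and other Ank3 probe sets ranged up to 0.66. Among the spectrins, Sptbn1 had 0.32, Sptbn4 0.26 and the alpha chain Sptan1 -0.26 by their brightest probe sets. Other kept probe sets ranged from -0.56 to 0.50 for Sptbn1, and the other one of Sptan1 had 0.03. The brightest probe set of each relative named in this paragraph had a smaller ratio than its red cell relative in both mutant pools.

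The transglutaminases did not follow that order. Tgm1, the enzyme that cross-links the skin envelope, read 357 and 378 in the mutant pools against 104 in the normal pool, a log2 ratio of 1.56 (SE 0.29, limma adjusted p = 0.120). Tgm2, the broadly expressed enzyme, had 1.36 by its brightest probe set (SE 0.26, limma adjusted p = 0.127), although its other kept probe sets ranged from 0.08 to 0.92. Tgm3 had -0.08. Btn1a1, a butyrophilin of milk fat, had 0.29 against 1.80 for Ermap. Ghr, the growth hormone receptor, had 0.73 against 1.32 for Epor. Of the TRIM genes that were kept, Trim39 had 0.54, Trim27 -0.11 and Trim26 -0.20, against 1.86 for Trim10.

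**Figure D3:**
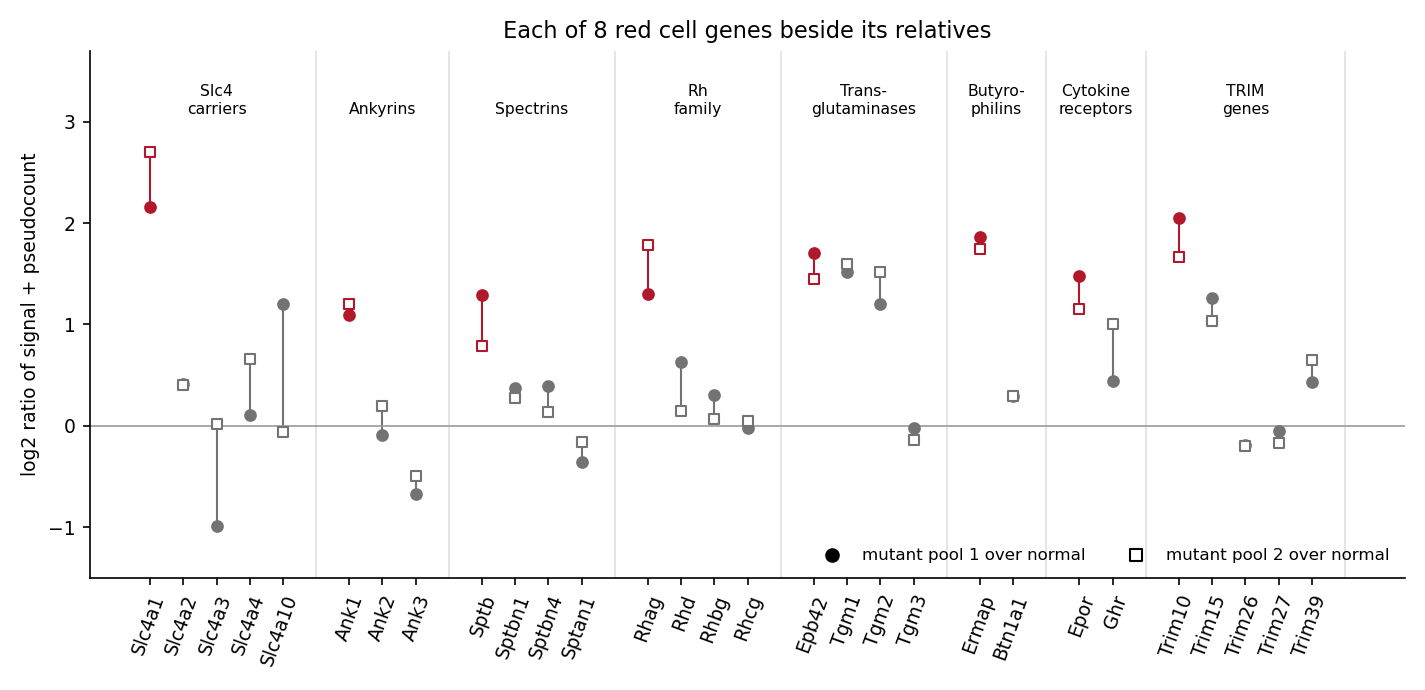
Log2 ratio over the normal pool in mutant pool 1 (filled circles) and mutant pool 2 (open squares) for 8 of the genes (red) beside relatives (grey), which include Rhd from the red cell membrane list. Epb42, Slc4a10, Rhbg, Rhcg and Trim15 are drawn although they were dim and had no test. The red points lie above all grey points of their family except among the transglutaminases.

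Genes that lie beside the 9 on the chromosome were examined after the values above were known, with the order taken from the GRCm38.p6 gene table. Taking 2 protein-coding genes on either side, 30 neighbours were measured. Their median log2 ratio was -0.01. Of the 30, 10 read higher in both mutant pools and 10 lower in both, against 36% and 37.4% of all measured genes. At least 2-fold higher in both was 1 of the 30, Trim15, against 3.11% of all measured genes. Trim15 lies next to Trim10 and read 122 and 100.3 in the mutant pools against 32.5 in the normal pool. It was removed by the filter. Slc2a1, the glucose transporter of red cells and many other tissues, lies near Ermap and had a log2 ratio of -0.04.

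Genes of the receptor's signalling path lay on both sides of the normal level. Of 19 genes listed for Epor signalling and its targets, 16 were measured, all were kept, and their median log2 ratio was 0.11. Limma called 0 of them, and 1 had an unadjusted p under 0.05 on each side, against 8.01% higher and 4.24% lower of all kept genes. Jak2 had a log2 ratio of 0.27 (SE 0.23), Stat5b 0.40 (SE 0.26) and Stat5a 0.45 (SE 0.47), while Epo was not analysed here. Gab1, a docking protein of growth factor receptors, read 2421 and 2354 in the mutant pools against 959 in the normal pool (1.29, SE 0.20, limma adjusted p = 0.0851). Socs2, a feedback inhibitor that STAT5 is known to induce, had -0.90 (SE 0.26, limma adjusted p = 0.246). Socs3, another such inhibitor, had 0.56 (SE 0.31), and the adaptor Shc1 had -0.40 (SE 0.22).

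Most other markers of red cell precursors read higher too. Of 18 listed, 17 were measured, and their median log2 ratio was 0.90. Of these, 12 were higher in both mutant pools and 1 lower in both, against 36% and 37.4% of all measured genes. Of the 14 kept, 2 rose, against 0.728% of all kept genes. They were the embryonic alpha-like globin gene Hba-x and the biliverdin reductase gene Blvrb, named after their values were seen. Blvrb read 871 and 576 in the mutant pools, against 26.3 in the normal pool. That normal value lay below the 20th percentile of its array, so Blvrb passed the filter through its mutant values and the size of its ratio depends on the pseudocount. The summed signal of the 17, most of it from embryonic globins, was 89397 and 86501 in the mutant pools, against 53245 in the normal pool. The transcription factor gene Klf1 read 1040 and 780 in the mutant pools against 180 in the normal pool (log2 ratio 2.14, SE 0.29), and Gata1 read 936 and 559 against 207 in the normal pool (1.66, SE 0.37). Neither passed (limma adjusted p = 0.0610 and 0.165).

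Markers of other blood and vessel cells were smaller in ratio. The 8 macrophage and white cell markers had a median ratio of 0.12 on the log2 scale, with summed signals of 1024 and 1327 in the mutant pools and 1095 in the normal pool. Megakaryocyte and platelet markers had 0.29 over 7 genes, with sums of 1354 and 1585 in the mutant pools and 1162 in the normal pool. Endothelial markers had 0.68 over 9 genes, with sums of 4316 and 5904 in the mutant pools and 3358 in the normal pool. Limma called 0 genes in these 3 lists after adjustment. At an unadjusted limma p under 0.05 it called 5 of the 9 endothelial genes, all higher, against 8.01% of all kept genes on that side. The adult globin gene Hbb-b2, the single adult beta globin gene with a probe set of its own, read 140 and 89.1 in the mutant pools and 146 in the normal pool.

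**Figure D4:**
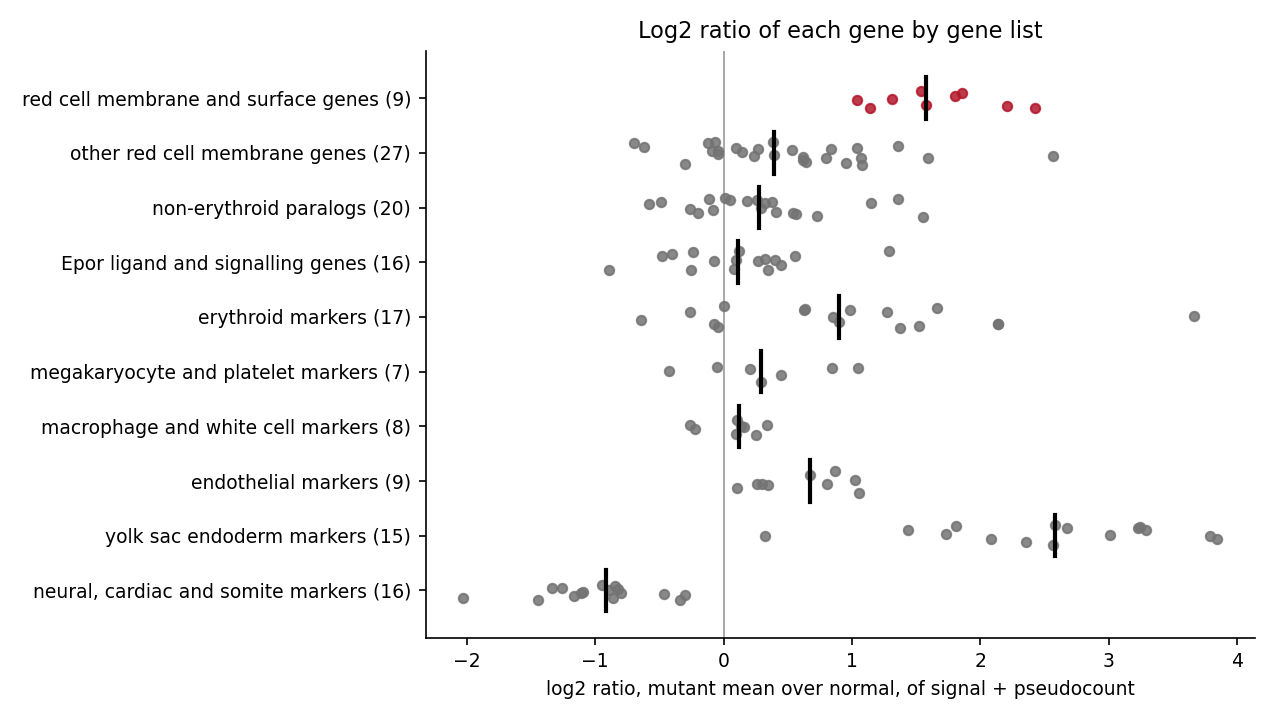
Log2 ratio of each measured gene (points, mutant mean over the normal pool, signal plus pseudocount) and list median (black bar) for the 9 genes (red) and other gene lists (grey), with the number of genes in brackets. The 9 genes lie between 1.04 and 2.43, above the median of each other list drawn except yolk sac endoderm markers.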

How the data were processed

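Each deposited value is the intensity of 1 probe set on 1 array, not log-transformed. GCOS and MAS5 are the tools listed in the submitters' processing notes, with no versions. The deposited intensities have a trimmed mean of 500 on every array (2% trimmed from each side), so the arrays share a scale set by total signal, and a gain in one tissue's transcripts lowers the rest. The 64 Affymetrix control probe sets were left out. Symbols came from the platform annotation, and all 16 probe sets of the 9 genes kept theirs when looked up by gene identifier.

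Signals were analysed as log2(signal + 31.92). Probe sets entered the fit if the average of the mutant mean and the normal value reached the 40th percentile. Limma (version 3.58.1, R 4.3.3) was fitted to all kept probe sets with lmFit and eBayes (variance trend, two-sided), which left 1 residual degree of freedom plus 4.52 prior ones, with Benjamini-Hochberg adjustment and a threshold of 0.05. The script was tested on simulated data. A gene is given by its brightest probe set, and counts and medians over the 9 genes and over lists include genes the filter removed. All probe sets of the 9 genes are named, and other genes follow a written rule by the size of the less changed mutant pool. The members and lists were chosen with earlier results of these data known. Alternatives varied the pseudocount, filter, scaling, variance trend, probe set rule and mutant arrays. The number of arrays limits the precision.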

Additional observations from a re-analysis of the deposited data

How the results depend on the processing

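The alternatives included the nearly equal pseudocounts of 15.96 and 16. Each of the 105 values obtained for the 9 genes under an alternative was higher in the mutants. The stricter filter gave none for Epb42 or Rhag, and the fit without a variance trend gave none for Epb42. Where a value was given, changing the filter or the variance trend left a gene's log2 ratio as it was. Leaving out a mutant array gave the ratio of the other pool. All the values reuse the same arrays, so their number is no independent support. Slc4a1 did not pass with a double pseudocount, no filter, median centring, quantile normalization, cyclic loess or no variance trend, and under each of these 6 the number of the 9 genes called was 0. The mean of probe sets gave 4 (Slc4a1, Ermap, Hemgn and Trim10), with fewer features tested (17306). Calls over the whole array were 0 without the filter and 0 without the variance trend, where 2423 and 1641 probe sets had an unadjusted limma p under 0.05 on the higher side, and the mean of probe sets gave 294 higher and 95 lower against 148 and 8. The number of genes at least 2-fold higher ranged from 6 to 8, and from 8 to 9 with one mutant array left out. Their median log2 ratio was 1.65 with the pseudocount halved or at 16, 1.35 with it doubled, 1.80 with the stricter filter, which removed dim genes, 1.62 with median centring, 1.64 with cyclic loess and 1.54 with the mean of probe sets. It was 1.67 to 1.71 with one mutant array left out. Other red cell membrane genes gave 1 call with the pseudocount halved or at 16 and with probe sets averaged, and non-erythroid relatives gave 1 when averaged likewise. The causes were not tested. Unadjusted calls over the array split 1811 higher and 1853 lower, and 2038 and 1560 after median centring. No paired analysis was possible because the normal group has a single array with no replicate number in the labels. The single normal array limits every value.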
